A study of Rattus norvegicus with 6 samples.

Results

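The 40 genes described here encode parts of the machinery that copies DNA and divides the cell, and were read in 6 RNA-seq libraries of the adult male rat pituitary gland. They were taken by gene symbol from a list of cell cycle and DNA replication genes; all 40 occur among the 33294 gene rows of the count tables, and all 40 are among the 17292 genes that passed the filter on low counts. The animals were 11-week-old male Sprague-Dawley offspring. The 3 nicotine libraries came from sons of dams that received nicotine tartrate (6 mg/kg per day) from an osmotic pump, and the 3 control libraries from sons of dams whose pump held saline. The pump was placed 13 days before birth at gestational day 19, and as a 28-day device it could have run on past birth. No rat carried an engineered allele. Each library is 1 rat, and which dam bore which rat is not given in the sources used here, so littermates cannot be told from unrelated rats and p-values measure the spread between these 6 libraries only.

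Groups follow GEO's labels. The study's list of read numbers gives the control libraries more reads than the nicotine libraries, whereas the count tables hold the opposite order. Replicate by replicate, the listed read numbers of one group stand in nearly the same proportion to the count totals of the other group, as they would if the group names had been exchanged in one of the sources, and the files do not tell which source is right. Every direction below rests on the labels and would turn if the names of the count tables were the ones exchanged. The total counts were 46239801, 85977002 and 62932317 for nicotine 1, 2 and 3, and 28318383, 54309256 and 37095718 for control 1, 2 and 3. The labels' extraction text describes testis, but 4 of 10 testis germ cell markers were at 0 in every library and the 10 summed to at most 0.191 counts per 1000000 counts of the library (CPM), whereas 10 pituitary endocrine markers, among them Gh1, Prl and Pomc, summed to between 119312 and 183114 CPM. Nicotine 2, the most deeply sequenced library, stood farthest from the others in its gene counts (chi-square per degree of freedom 280.2 to 455 against each other library, and 31.2 to 148 among the remaining 5), a measure that grows with depth.

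A cell that divides passes through a gap phase (G1), DNA synthesis (S), a further gap (G2) and mitosis (M), driven by cyclins that activate cyclin-dependent kinases. Most genes of S phase are switched on by E2F factors once the retinoblastoma protein is phosphorylated, and genes of G2 and M are kept silent in resting cells by the DREAM complex, which reads a short promoter element called CHR, and are activated later by B-MYB and FOXM1 together with NF-Y at CCAAT boxes. The endocrine cells of the adult pituitary divide rarely. In a bulk sample, fewer dividing cells and less RNA in each of them cannot be told apart. The 40 members comprise 26 genes of G2 and M and 14 genes of G1 and S.

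Promoter sequence was a property that the choice of genes did not use. It is shown first because the shares of promoters with these elements differ between the 2 sets. RefSeq promoters of the GRCr8 assembly, 300 bases from 250 before to 50 after the annotated start, were at hand for 32 of the 40 members; Ccna2, Ccne2, Aurkb, Tpx2, Foxm1, E2f1, Mcm4 and Rrm2 were not matched. The letters searched on both strands were TTTGAA for CHR, CCAAT for the NF-Y box, and TTGGCGC for E2F, with the variant forms TTCGCGC and also TTCCCGC; the NF-Y box read on the other strand is ATTGG and can share letters with TTGGCGC. The 4 stretches below, the 150 bases before each start, are shown as 1 gene that stood apart in the comparison of the groups (Cdc25b, the phosphatase that activates cyclin-dependent kinase), 2 genes of mitotic entry (Ccnb2, a mitotic cyclin, and Cdk1, its kinase partner) and 1 gene of replication licensing (Mcm6, a subunit of the replicative helicase). They lie at chr3:138860023-138860172 on the plus strand, chr8:79981659-79981808 on the minus strand, chr20:19265143-19265292 on the plus strand and chr13:42404353-42404502 on the minus strand of GRCr8, in that order. Capitals mark the matches; those at the end of Mcm6 belong to a match that runs past the start.
Cdc25b: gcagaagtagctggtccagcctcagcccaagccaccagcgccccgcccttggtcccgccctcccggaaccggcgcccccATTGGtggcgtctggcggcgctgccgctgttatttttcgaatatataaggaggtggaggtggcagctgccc
Ccnb2: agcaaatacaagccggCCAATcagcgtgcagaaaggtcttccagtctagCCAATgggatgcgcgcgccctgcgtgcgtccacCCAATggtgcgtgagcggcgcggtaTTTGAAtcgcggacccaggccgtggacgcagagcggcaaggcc
Cdk1: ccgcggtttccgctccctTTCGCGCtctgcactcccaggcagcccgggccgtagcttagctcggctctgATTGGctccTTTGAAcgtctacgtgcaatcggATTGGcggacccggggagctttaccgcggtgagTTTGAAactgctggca
Mcm6: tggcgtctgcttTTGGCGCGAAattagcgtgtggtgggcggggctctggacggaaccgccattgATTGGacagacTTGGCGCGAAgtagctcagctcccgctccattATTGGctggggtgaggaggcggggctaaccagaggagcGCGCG

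Among the 22 G2/M members with a promoter, 14 (63.6%) held the CHR letters, against 1 of 10 G1/S members (10%). The share was 19.4% over all 27457 genes with a promoter at hand. A gene counted as holding the letters if any of its listed promoters did. CCAAT occurred in 18 of 22 G2/M members (81.8%), 5 of 10 G1/S members (50%) and 39.6% of all these genes. At least 2 copies occurred in 54.5%, 40% and 12.2%. Both CHR and CCAAT were held by 59.1% of G2/M members, 0 of 10 G1/S members and 7.96% of all these genes. The E2F letters gave the reverse order, with 3 of 22 G2/M members (13.6%), 7 of 10 G1/S members (70%) and 8.4% of all these genes. Ccnb2 held CCAAT at -134, -101 and -68 and CHR at -43 within the stretch shown. Cdc25b held CCAAT at -71 and no TTTGAA in its window, but its stretch holds ttcgaa, which differs from TTTGAA in 1 letter. Variant forms of CHR were not searched, so a lack of a CHR element in Cdc25b was not shown. These matches are letters in a window and no measure of binding.

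**Figure D1:**
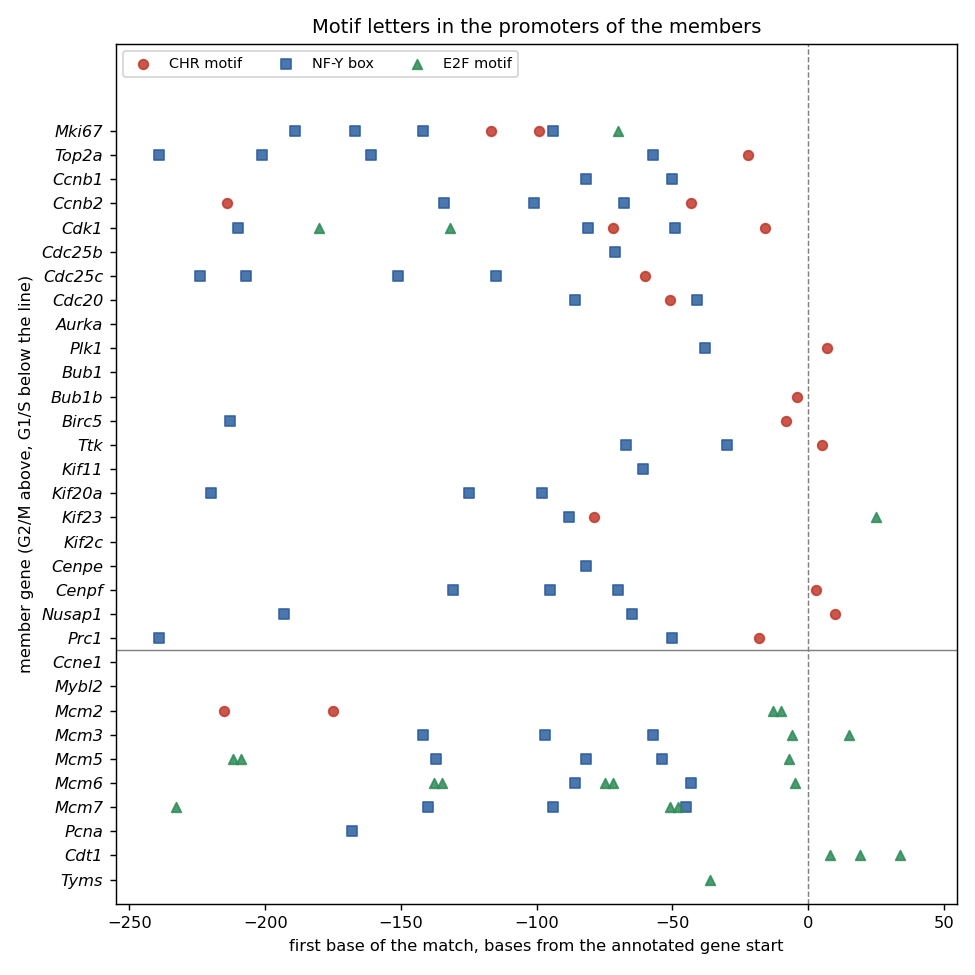
Position of each match to CHR, the NF-Y box (CCAAT) and E2F in bases from the annotated start (x axis, dashed line at the start) for the 32 members with a promoter (y axis, G2/M above the line, G1/S below). CHR points lie in 14 of the 22 upper promoters and in 1 of the 10 lower ones, and E2F points in 3 of the upper and 7 of the lower.

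Transcripts of all 40 genes were detected in every library, from 6 counts of Ccnb2 in nicotine 1 to 6581 counts, or 0.127 to 79.1 CPM. Of the 40, 29 stayed under 5 CPM in all 6 libraries, 24 of the 26 G2/M members and 5 of the 14 G1/S members. Transcript lengths were not at hand, so CPM of different genes are not on 1 scale. The counts under 5 CPM therefore do not show that G2/M transcripts were rarer than G1/S transcripts. The whole list drew between 9509 and 34397 counts per library. The summed level of the 40 was 290.2, 373 and 301 CPM in nicotine 1, 2 and 3 and 351, 321 and 394 CPM in control 1, 2 and 3 (322 ± 45.1 against 355 ± 37.03, mean ± SD, n = 3 each). The groups overlapped, with nicotine 2 above 2 of the 3 controls, and the ratio of nicotine to control was 0.905.

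**Figure D2:**
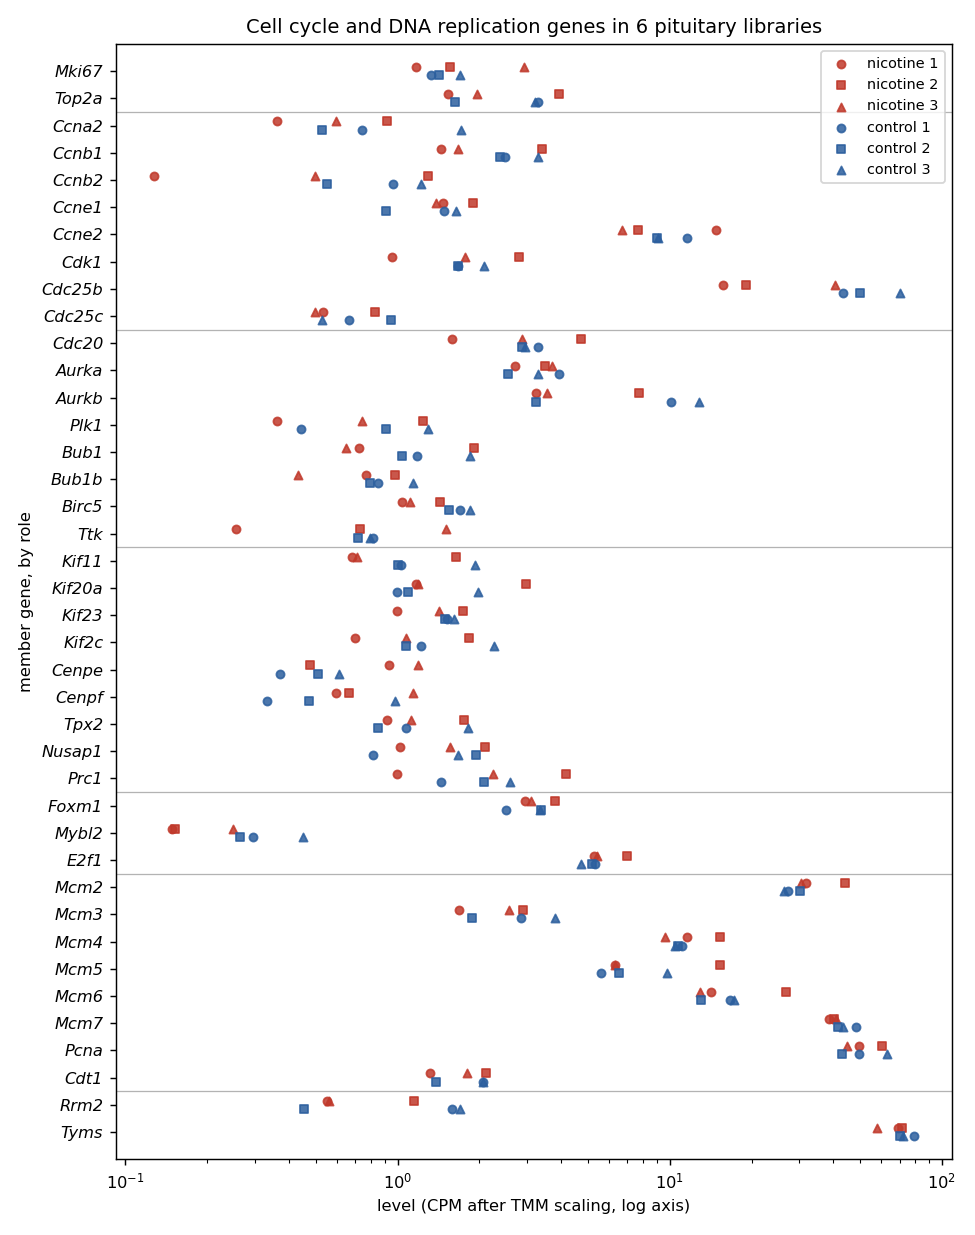
Level of each of the 40 members (rows, by role) in the 6 libraries, in CPM after TMM scaling on a log axis; red marks are nicotine and blue marks control, and each shape is 1 replicate number. All 3 red marks lie left of the blue ones for Cdc25b, Birc5, Mybl2 and Mcm7 and right of them for Mcm2.

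In the comparison of nicotine with control offspring, none of the 40 genes was called by edgeR's quasi-likelihood test at the study's thresholds (a fold change above 1.5 with an adjusted p below 0.1), as for all genes tested (0 of 17292, 0%). At an unadjusted p under 0.05, edgeR had 1 member, Cdc25b, beside 5.85% of all genes (3.12% higher and 2.73% lower in nicotine). By DESeq2 1 member was called, again Cdc25b and lower in nicotine, beside 62 of 17876 genes with an adjusted p (0.347%, 0.241% lower). The 3 libraries of one group all lay on one side of the other group for 5 members, beside 11.3% of all genes: Mcm2 was higher (6.12% of all genes) and Cdc25b, Birc5, Mybl2 and Mcm7 were lower (5.14% of all genes). The log2 fold change of nicotine over control was above 0 for 18 members and below 0 for 22, against 51.2% above 0 among all genes, and its median was -0.04 for the members and 0.01 for all genes. Without nicotine 2 that median was -0.32, with 6 members at an unadjusted p under 0.05 in edgeR, beside 6.36% of all genes. Of these, Aurkb, Bub1, Ccnb1, Ccnb2 and Cdc25b were lower in nicotine and Cenpe was higher (log2 fold change 1.07). DESeq2 in that setting had Bub1, Ccnb1, Ccnb2 and Cenpe at an unadjusted p under 0.05, beside 1167 of 24082 genes. Without nicotine 2, 15 members were without overlap, beside 21.8% of all genes for these 2 against 3 libraries. Without nicotine 1 the median was 0.12, and 7 members were without overlap, beside 25.6% of all genes.

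What these 6 libraries could resolve was limited. The members' biological coefficient of variation, the spread between rats of a group beyond counting error, had a median of 33.0%, with 35.01% for G2/M members and 25.3% for G1/S members, against 20.8% for all genes. The median standard error of a member's log2 fold change was 0.38, against 0.22 over all genes. Neither comparison was matched for level, and 24 of the 26 G2/M members lay under 5 CPM in every library. Whether the members vary more than genes of like level is therefore not known. The 95% interval held 0 for 39 of 40 members, lay within a 4-fold change (log2 of 2) either way for 40, and lay within a 2-fold change (log2 of 1) for 17. For the remaining members a 2-fold change in at least 1 direction lies within the interval.

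**Figure D3:**
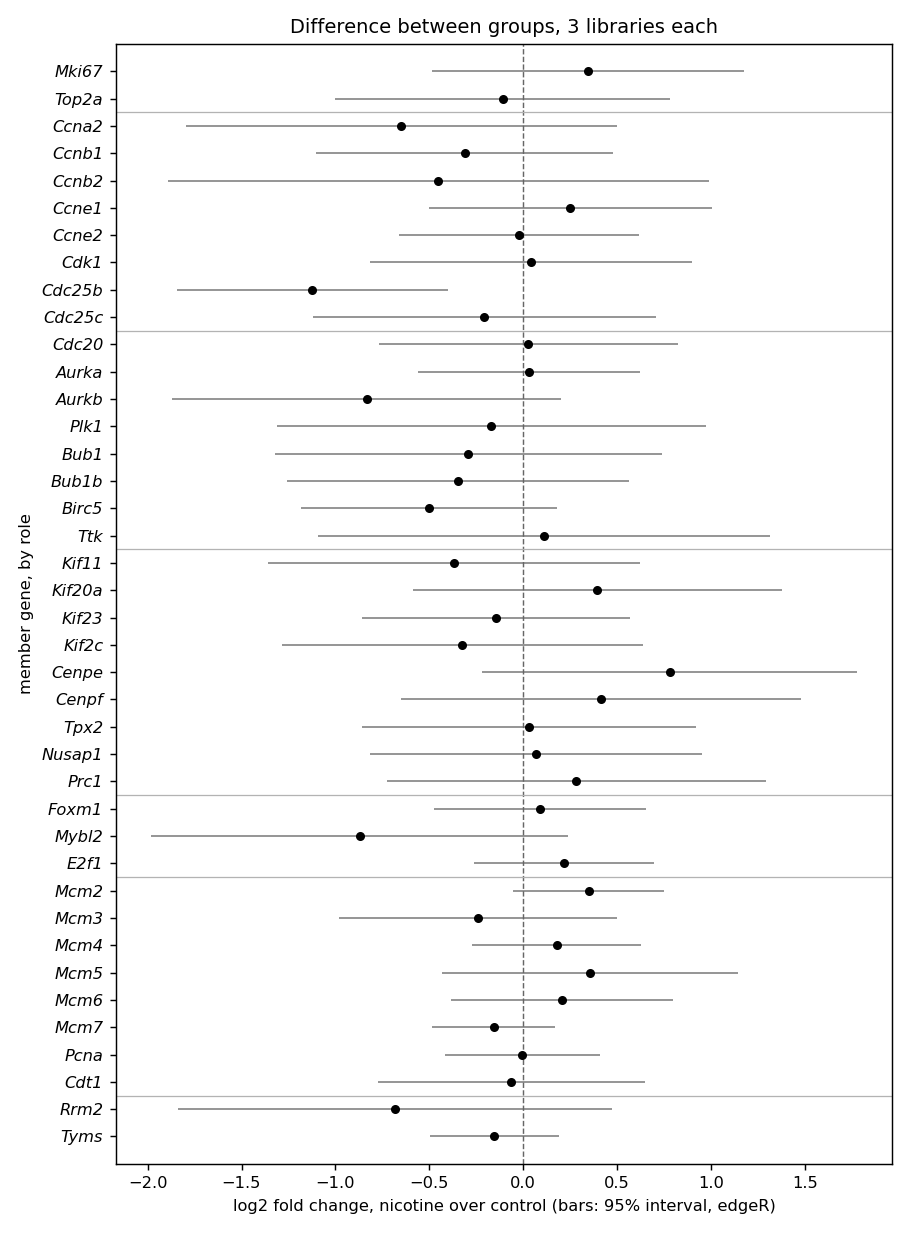
Log2 fold change of nicotine over control for each member, with a 95% interval derived from edgeR's test (x axis, dashed line at 0). The interval of Cdc25b, -1.85 to -0.40, is the one that leaves out 0.

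Cdc25b encodes a phosphatase that removes inhibitory phosphates from cyclin-dependent kinases at the entry to mitosis. Its level was 15.7, 19.01 and 40.5 CPM in nicotine 1, 2 and 3 and 43.4, 49.9 and 70.5 CPM in control 1, 2 and 3. The highest nicotine library lay just under the lowest control library. The log2 fold change was -1.12 (SE 0.33), with an edgeR p of 0.00582 and an adjusted p of 0.807; an exact permutation test, two-sided, gave p = 0.1, the smallest that 3 against 3 allows. DESeq2 gave the same log2 fold change of -1.12, with an adjusted p of 0.0951, and made the call. The DESeq2 call held without nicotine 3 (adjusted p 1.72e-06, in a setting that called 185 genes, 1.05%) and was lost without any one of the other 5 libraries (adjusted p 0.143 to 0.845), while the log2 fold change ranged from -1.65 without nicotine 3 to -0.88 without nicotine 1.

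Markers of several other cell types differed between the libraries along with Cdc25b. The summed level of 7 markers of red cells and their precursors, among them Hbb and Alas2 (the first enzyme of heme synthesis), was 4814, 3085 and 9714 CPM in nicotine 1, 2 and 3 and 8021, 10901 and 16246 CPM in control 1, 2 and 3. None of the 7 was at 0 in all libraries; all 7 had a log2 fold change below 0, with a median of -1.09, and 6 had an unadjusted p under 0.05 in edgeR, which called 0; DESeq2 called 2, Slc4a1 and Hemgn, both lower in nicotine. Nicotine 1 and nicotine 2 were lowest and control 3 was highest for both Cdc25b and the sum of these markers. The groups overlapped for the sum but not for Cdc25b. Among the 7, Alas2 and Hemgn also separated the groups without overlap, lower in nicotine, and the others overlapped. Alas2 was at 48.2, 37.7 and 121 CPM in nicotine 1, 2 and 3 and 129, 147 and 197 CPM in control 1, 2 and 3. Hemgn was at 0.912, 1.02 and 2.58 CPM against 3.84, 4.12 and 4.31 CPM. Fibroblast and lymphocyte markers, given by library further on, separated the groups without overlap as Cdc25b did, both lower in nicotine, and macrophage markers were also lowest in nicotine 1 and 2 (153 and 152 CPM). The part of these cell types in the level of Cdc25b was not tested.

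**Figure D4:**
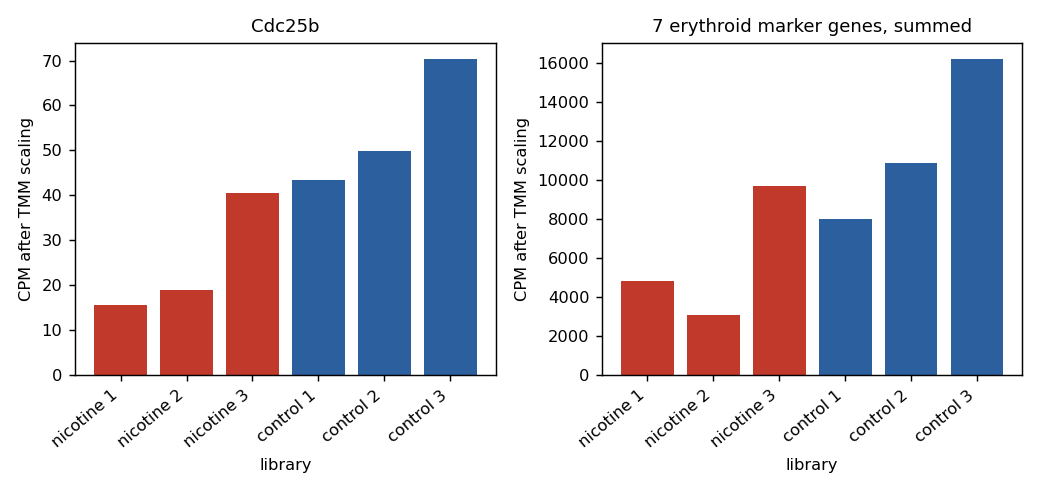
Level of Cdc25b and summed level of the 7 erythroid markers in each of the 6 libraries, in CPM. Nicotine 1 and 2 are lowest and control 3 is highest on both measures.

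The general markers of dividing cells gave no shared direction. Mki67, a protein that coats mitotic chromosomes and is used to mark cycling cells, was at 1.17, 1.56 and 2.91 CPM in the nicotine libraries and 1.33, 1.42 and 1.69 CPM in the control libraries (log2 fold change 0.34, SE 0.38). Top2a, the topoisomerase that untangles replicated chromosomes, was at 1.53, 3.92 and 1.97 CPM against 3.29, 1.63 and 3.20 CPM (log2 fold change -0.11, SE 0.40). The groups overlapped for both, and the order of the libraries differed between the 2 genes: nicotine 3 was highest for Mki67 and nicotine 2 for Top2a.

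Of the 8 genes for cyclins, Cdk1 and the Cdc25 phosphatases, 2 had a log2 fold change above 0 and 6 below, with a median of -0.26. Ccna2, a cyclin of S phase and G2, was at 0.361, 0.912 and 0.595 CPM in the nicotine libraries and 0.739, 0.530 and 1.72 CPM in the controls (log2 fold change -0.65, SE 0.52). Ccne2, a cyclin of the G1 to S passage, was at 14.8, 7.63 and 6.69 CPM against 11.6, 8.98 and 9.09 CPM (-0.02, SE 0.29), with nicotine 1 highest and nicotine 3 lowest. Ccnb1, Ccnb2, Ccne1, Cdk1 and Cdc25c had log2 fold changes between -0.45 and 0.25, each with an interval that held 0. Ccne2 overlaps Ints8 in the GRCr8 annotation; it is 1 of 9 members that overlap another protein-coding gene, with Cdc25c, Aurka, Plk1, Kif11, Kif20a, Nusap1, Foxm1 and Rrm2, and their counts are uncertain to that extent because the strand setting of the counting is not given in the sources used here.

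The 8 genes of the mitotic kinases, the spindle checkpoint and the anaphase-promoting complex split into 3 log2 fold changes above 0 and 5 below, around a median of -0.23. Aurkb, the kinase of the chromosomal passenger complex, was at 3.22, 7.73 and 3.55 CPM in the nicotine libraries and 10.1, 3.22 and 12.8 CPM in the controls (-0.83, SE 0.47). Control 2 was as low as the lowest nicotine library, and the edgeR interval ran from -1.87 to 0.20. Birc5 (survivin), which works in the same complex, was at 1.04, 1.43 and 1.11 CPM against 1.70, 1.55 and 1.85 CPM, without overlap (log2 fold change -0.50, SE 0.31, edgeR adjusted p = 0.852). Aurka, the kinase of the spindle poles, was at 2.69, 3.50 and 3.70 CPM against 3.91, 2.55 and 3.28 CPM (0.03). The remaining 5 members of this set, Cdc20, Plk1, Bub1, Bub1b and Ttk, had log2 fold changes between -0.35 and 0.11.

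For the 9 kinesins, kinetochore and spindle genes, 6 log2 fold changes were above 0 and 3 below, with a median of 0.07. Cenpe, the kinesin that carries chromosomes to the spindle equator, was at 0.933, 0.478 and 1.19 CPM in the nicotine libraries and 0.369, 0.511 and 0.608 CPM in the controls (0.78, SE 0.45, edgeR adjusted p = 0.848). Its nicotine 2 library lay among the controls. Prc1, which bundles microtubules in the spindle midzone, was at 0.997, 4.16 and 2.25 CPM against 1.44, 2.08 and 2.59 CPM (0.28, SE 0.46). Kif20a, a kinesin of cytokinesis, was at 1.17, 2.96 and 1.19 CPM against 0.997, 1.10 and 1.98 CPM (0.39, SE 0.45), and nicotine 2 was highest for both. Cenpf, a kinetochore protein, was at 0.594, 0.662 and 1.14 CPM against 0.332, 0.473 and 0.977 CPM (0.41, SE 0.48), with overlap. Kif11, Kif23, Kif2c, Tpx2 and Nusap1 lay between -0.37 and 0.07.

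For the 3 transcription factors the median log2 fold change was 0.09. E2f1, an activator of S phase genes, was at 5.28, 6.97 and 5.42 CPM in the nicotine libraries and 5.32, 5.18 and 4.73 CPM in the controls (0.22, SE 0.22). Foxm1, an activator of G2/M genes, was at 2.95, 3.78 and 3.09 CPM against 2.51, 3.37 and 3.33 CPM (0.09, SE 0.26). Mybl2, the gene for B-MYB, was at 0.149, 0.152 and 0.248 CPM against 0.295, 0.265 and 0.449 CPM, without overlap (-0.87, SE 0.50). Those levels rest on 7, 14 and 15 counts against 8, 14 and 17 counts.

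Among the 8 genes of origin licensing and the replication clamp, 4 log2 fold changes were above 0 and 4 below, with a median of 0.09. Mcm2, a helicase subunit, was at 31.8, 44.3 and 30.4 CPM in the nicotine libraries and 27.3, 30.1 and 26.3 CPM in the controls (0.35, SE 0.18, edgeR adjusted p = 0.839). Its lowest nicotine library and highest control library nearly touched. Mcm7, a subunit of the same ring, was at 38.7, 40.2 and 40.8 CPM against 48.3, 41.6 and 43.5 CPM (-0.16, SE 0.15), and Mcm5 at 6.30, 15.3 and 6.28 CPM against 5.61, 6.51 and 9.75 CPM (0.35, SE 0.36; -0.23 without nicotine 2). Pcna, the sliding clamp of DNA polymerase, was at 49.7, 60.2 and 44.97 CPM against 49.8, 42.8 and 62.8 CPM (-0.00, SE 0.19). Its interval, -0.42 to 0.41, was among the narrower of the members. Mcm3, Mcm4, Mcm6 and Cdt1 lay between -0.24 and 0.21.

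Both genes of nucleotide supply had lower means in nicotine, within the spread of the rats. Tyms, thymidylate synthase, was at 69.3, 71.4 and 58.0 CPM in the nicotine libraries and 79.1, 70.1 and 72.0 CPM in the controls (-0.15, SE 0.16). Rrm2, a subunit of ribonucleotide reductase, was at 0.552, 1.15 and 0.562 CPM against 1.59, 0.454 and 1.69 CPM (-0.68, SE 0.52), with control 2 lowest of the 6.

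The members varied between libraries in a pattern that cut across the groups. Nicotine 2 was the highest library for 18 of the 40 and control 3 for 13, and nicotine 1 was the lowest for 19, 15 of them among the 26 G2/M members. Nicotine 2 and control 3 each lay above a gene's own mean over the 6 libraries for 34 members, and nicotine 1 for 5. The median deviation from that mean, on the log2 scale, was -0.44, 0.37 and -0.07 for nicotine 1, 2 and 3 and 0.04, -0.09 and 0.31 for control 1, 2 and 3, and for the G2/M members it was -0.63, 0.47 and -0.06 against 0.04, -0.08 and 0.42. For 18 members, among them Top2a, Ccna2, Ccnb1, Ccnb2, Aurkb, Bub1, Mcm6 and Rrm2, the 3 highest libraries were nicotine 2, control 1 and control 3. These counts are descriptions of 6 libraries that share their depth and scaling across genes. The same counts were not made over all genes, so whether the pattern is particular to the members is not known.

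**Figure D5:**
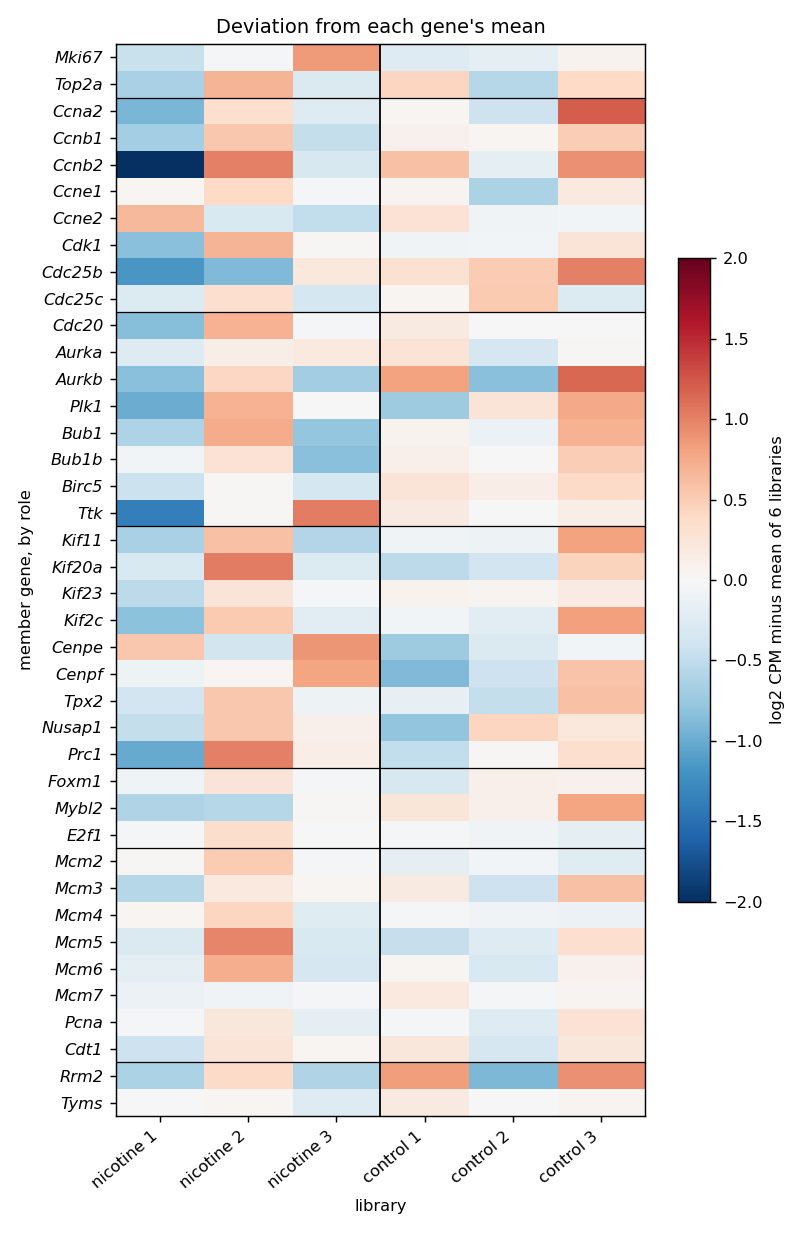
Deviation of each member from its own mean over the 6 libraries, on the log2 scale (color, limited at 2 either way), with members in rows by role and libraries in columns. Nicotine 1 is mostly below the mean (35 of 40 members are not above it), and nicotine 2 and control 3 are above it for 34 members each.

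Summed over the 26 G2/M members, the level was 43.4, 77.1 and 79.7 CPM in nicotine 1, 2 and 3 and 88.1, 86.6 and 129 CPM in control 1, 2 and 3 (66.7 ± 20.3 against 101 ± 24.0, SD, n = 3), a ratio of 0.659 without overlap. Without Cdc25b, a setting chosen after the data were seen, the sum was 27.7, 58.1 and 39.2 CPM against 44.7, 36.7 and 58.4 CPM, with overlap and a ratio of 0.894. The 14 G1/S members summed to 255 ± 37.96 CPM in nicotine and 254 ± 17.5 CPM in control, a ratio of 1.00. Tyms, Pcna, Mcm7 and Mcm2 weigh most in that sum, with control means of 73.7, 51.8, 44.5 and 27.9 CPM. It therefore says little of members at low levels, such as Rrm2 and Mybl2. All members without Tyms and Pcna summed to a ratio of 0.887, with overlap.

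Markers of other cell types also differed between libraries. Fibroblast markers summed to 423, 287 and 501 CPM in nicotine 1, 2 and 3 and 578, 784 and 650 CPM in control 1, 2 and 3, and 6 of 6 had an unadjusted p under 0.05 in edgeR, all lower in nicotine. Neutrophil markers summed to 24.8, 24.2 and 23.7 CPM against 142, 8.36 and 103 CPM, with control 1 and control 3 high and control 2 lowest. Posterior lobe pituicyte markers summed to 71.5, 143 and 92.7 CPM against 94.1, 74.5 and 56.1 CPM, with nicotine 2 highest. Scn7a (log2 fold change 0.30) made up most of that sum in each library. Of the 6 markers, 5 were higher in nicotine and 1 lower (Gfap, -0.64), with a median log2 fold change of 1.31. Nkx2-1, Rax, Lhx2 and Col25a1 were each lowest in control 3. Endothelial markers were higher in nicotine for 8 of 8 genes, at 262, 203 and 329 CPM against 171, 215 and 162 CPM. Lymphocyte markers summed to 12.0, 14.5 and 12.2 CPM against 14.7, 16.0 and 23.5 CPM, without overlap, and 8 of 9 tested had a log2 fold change below 0. Macrophage markers lay at 153, 152 and 316 CPM against 343, 275 and 250.1 CPM, and stem and folliculostellate markers between 494 and 669 CPM. Neither edgeR nor DESeq2 called any of these markers (0 each), with 6 neutrophil, 5 endothelial, 3 pituicyte, 3 lymphocyte, 2 macrophage, 1 stem and folliculostellate and 1 endocrine gene at an unadjusted p under 0.05 in edgeR, and their part in the members' levels was not tested.

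The rest of the pathway was read from 5 further lists of 102 genes, of which 100 were tested. Again 0 were called by edgeR and 0 by DESeq2, and 2 had an unadjusted p under 0.05, both higher in nicotine, beside 5.85% of all genes (3.12% higher), so the lists held no more such genes than the background. E2f4, the repressor E2F of the DREAM complex, was at 25.7, 25.7 and 22.4 CPM in the nicotine libraries and 16.8, 19.2 and 19.7 CPM in the controls (log2 fold change 0.41, SE 0.16, edgeR adjusted p = 0.830). Smc4, a condensin subunit, was at 30.2, 17.5 and 30.2 CPM against 17.7, 20.1 and 17.1 CPM (0.50, SE 0.22, edgeR adjusted p = 0.839), with nicotine 2 among the controls. The sign was below 0 for 69 of the 100 and above 0 for 31, with a median log2 fold change of -0.12, against 51.2% above 0 among all genes.

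By list, the median log2 fold change was 0.18 for cyclin D, CDK4/6 and other G1 kinase genes (6 of 7 above 0), -0.31 for CDK inhibitors (6 of 7 below 0), -0.04 for pocket protein, E2F and DREAM subunits (9 of 15 below 0), -0.15 for other replication genes (21 of 28 below 0) and -0.18 for other mitosis genes (32 of 43 below 0). Cdkn1b, the inhibitor p27, whose loss gives pituitary tumors in rodents, was at 88.2, 59.5 and 70.9 CPM in the nicotine libraries and 102, 92.6 and 91.8 CPM in the controls (-0.39, SE 0.18, edgeR adjusted p = 0.839). Its groups did not overlap, nor did those of Cdkn1c (-0.31) and Cdkn2c (-0.34), which were named after their values were seen. These 3 of 7 inhibitors stand beside 5.14% of all genes without overlap and lower. Over all the further lists together, 8 of the 100 genes tested were without overlap and lower, and 3 without overlap and higher. Among all genes the share without overlap was 11.3% in both directions together. Cdkn1a had a log2 fold change of -0.61 (SE 0.41) and Pttg1, the securin first cloned from pituitary tumors, one of -0.45 (SE 0.45); with a library left out they ran from -0.92 to -0.11 (without control 3) and from -0.84 to -0.10 (without nicotine 1). Ccnd1 (0.18, SE 0.17), Ccnd2 (0.23, SE 0.27), Ccnd3 (0.08, SE 0.16), Cdk4 (-0.11, SE 0.17) and Rb1 (-0.13, SE 0.18) completed the named set.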

How the data were processed

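RNA was sequenced as paired-end, strand-specific libraries from 6 pituitary glands. The authors deposited raw featureCounts counts per gene symbol for each library; per the labels' processing notes, the tools were bcl2fastq 2.20.0.422, HISAT2 2.1.0 and DESeq2 2.11.40.7, with the rn7 genome and UCSC's ncbiRefSeq genes. The strand setting of the counting is not given in the sources used here. Counts carry counting error beyond which rats differ: a member with 6 counts is measured far less precisely than one with 6581.

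From these counts, edgeR 4.0.16 (R 4.3.3, limma 3.58.1) fitted the quasi-likelihood test of nicotine against control with TMM scaling and filterByExpr, adjusted by Benjamini-Hochberg over 17292 genes. Genes were called at a fold change above 1.5 with an adjusted p below 0.1. CPM were scaled by TMM. DESeq2 1.42.0 was the alternative. Leaving out each library, other scalings, filters, voom weights, thinning and the replicate block were tried. The statistical code was tested on simulated data.

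Members and lists were chosen with earlier results of these data known. Values per library are given for each member called by either tool, each with an unadjusted p under 0.05, and in each role the 2 with the highest mean CPM and the 2 with the largest absolute log2 fold change. Level per kilobase had been planned for that rule, but transcript lengths of the files' build were not at hand, so CPM took its place. Of the other cell cycle genes, those called or with an unadjusted p under 0.05 were named, with Pttg1, Cdkn1a, Cdkn1b, Ccnd1, Ccnd2, Ccnd3, Cdk4 and Rb1; Cdkn1c and Cdkn2c were named after their values were seen. A marker is not reported here.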

Additional observations from a re-analysis of the deposited data

How the results depend on the processing

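Over all genes, edgeR called 0 and the count was 62 by DESeq2, 30 with no filter on low counts, 2 with the replicate block, 1 each with library sizes alone, with at least 10 counts in every library and with voom weights, and 0 to 4 with a library left out; DESeq2 with a library left out called 44 to 185. Members called numbered 1 by DESeq2, and by DESeq2 with a library left out 1 without nicotine 3 and 0 otherwise. Members with an unadjusted p under 0.05 numbered 2 with no filter (1503 of 24546 genes) and with voom weights (1178 of 17292 genes). With a library left out they numbered 1 to 6, beside 654 of 17812 to 1531 of 17844 genes. Members without overlap numbered 3 with library sizes alone (2018 of 17292 genes) and after thinning to the smallest library (1844 of 16305 genes). With a library left out, where 2 libraries stand against 3, they numbered 6 to 15, beside 3053 of 17812 to 4569 of 17844 genes. The further cell cycle lists gave 4 genes with voom weights and 0 to 4 with a library left out. The median log2 fold change of the members ran from -0.32 to 0.12, and the ratio of their summed level from 0.827 to 0.960, with a library left out; the G2/M ratio without Cdc25b was 0.894. Nicotine and control rats with the same replicate number did not deviate alike from their group means (correlations of deviations 0.03, -0.20 and -0.08). Whether they were paired in the experiment is not given in the sources used here. With the replicate block Cdc25b had a log2 fold change of -1.22 (edgeR adjusted p 0.245) and 0 members were called.

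Some log2 fold changes changed sign, and the cause was not tested: Pcna with DESeq2 (0.0034), no filter (0.0095) and the block (0.0029); Ccne2 (0.030) and Pcna (0.047) with library sizes alone; Cdk1 (-0.19), Cdc20 (-0.25), Ttk (-0.054), Nusap1 (-0.12), Prc1 (-0.10) and Mcm6 (-0.0084) with voom weights; Cdk1 (-0.016), Aurka (-0.14), Nusap1 (-0.18) and Foxm1 (-0.0085) after thinning; Cdk1 (-0.072), Cdc20 (-0.096) and Ttk (-0.14) with the block. With a library left out, the log2 fold changes that changed sign ranged over Aurka -0.12 to 0.18, Bub1 -0.998 to 0.0055, Ccna2 -1.05 to 0.016, Ccnb2 -1.50 to 0.0045, Ccnd2 -0.12 to 0.48, Ccne2 -0.46 to 0.18, Cdc20 -0.45 to 0.33, Cdc25c -0.50 to 0.066, Cdk1 -0.41 to 0.34, Cdt1 -0.24 to 0.099, Foxm1 -0.039 to 0.16, Kif11 -0.94 to 0.011, Kif20a -0.22 to 0.77, Kif23 -0.35 to 0.040, Kif2c -0.78 to 0.091, Mcm3 -0.47 to 0.035, Mcm4 -0.031 to 0.32, Mcm5 -0.23 to 0.63, Mcm6 -0.21 to 0.40, Mki67 -0.11 to 0.59, Nusap1 -0.23 to 0.32, Pcna -0.14 to 0.16, Plk1 -0.69 to 0.20, Prc1 -0.34 to 0.65, Top2a -0.62 to 0.14, Tpx2 -0.30 to 0.42, Ttk -0.61 to 0.52.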
